A study of Mus musculus with 6 samples.

Results

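Dppa2, Dppa3, Dppa4, Dppa5a and Utf1 are genes that mouse embryonic stem cells transcribe and most adult tissues do not. These 5 genes, of 53465 in each deposited count table, were taken by symbol because several of them had more reads in stem cells treated with BMP inhibitors. The difference between the treated and untreated cultures therefore chose them, and it is given for them as a description without a test. Libraries of the group R2i_BMPi (n = 3) came from Royan B20, a line of mouse embryonic stem cells, in R2i medium with 250 nM noggin, a secreted protein that binds BMP ligands, and 5 µM dorsomorphin, which blocks BMP type I receptors and other kinases. Libraries of the group R2i_control (n = 3) came from the same line in R2i alone. Both groups shared 0.1% gelatin as the substrate, LIF, 1 µM of a MEK inhibitor written PD0329501 in the labels and 10 µM SB431542, which blocks TGF-beta receptors, and the line had been kept in this medium for 7 passages. A single line was used, the labels call the 3 cultures of a group biological replicates, and the duration of the inhibitor treatment was not given in the sources used here.

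The proteins of these genes act on chromatin, DNA methylation and RNA. DPPA2 and DPPA4 are paralogous SAP-domain proteins that bind each other, occupy CpG-rich promoters carrying both active and repressive histone marks, and are known to activate Dux, the transcription factor gene that starts the 2-cell-like programme. DPPA3, also called STELLA, is a maternal-effect protein that marks early germ cells and the inner cell mass, and it holds back maintenance methylation by binding UHRF1. DPPA5A is a KH-domain RNA-binding protein, and UTF1 is a chromatin-bound factor whose gene is a textbook OCT4 and SOX2 target in undifferentiated cells.

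The Dppa genes, unlike Utf1, have near-identical copies elsewhere in the genome, which matters for how their reads can be counted. The following stretches are coding bases of Dppa2, Dppa4, Dppa3 and Dppa5a, each followed by the same stretch of a closest annotated copy (Dppa5c and Dppa5b were equally close to Dppa5a), as given in GENCODE M21 transcripts on GRCm38. Each stretch of 60 bases is the one with the most differences between gene and copy, and capitals mark the differing bases.
Dppa2: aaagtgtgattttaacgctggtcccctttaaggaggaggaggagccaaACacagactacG
Gm9788: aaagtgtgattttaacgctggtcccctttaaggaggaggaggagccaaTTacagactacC
Dppa4: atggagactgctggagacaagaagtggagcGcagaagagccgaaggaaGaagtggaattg
Gm14058: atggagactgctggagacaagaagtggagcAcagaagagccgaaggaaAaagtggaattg
Dppa3: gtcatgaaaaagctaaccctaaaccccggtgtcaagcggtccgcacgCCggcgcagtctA
Dppa3-ps: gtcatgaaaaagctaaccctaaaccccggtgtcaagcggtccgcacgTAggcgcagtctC
Dppa5a: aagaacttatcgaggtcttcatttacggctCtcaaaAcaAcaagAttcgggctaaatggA
Dppa5c: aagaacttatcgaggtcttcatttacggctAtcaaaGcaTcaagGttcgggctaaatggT

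Over the whole coding sequence, the processed pseudogene Gm9788 on chromosome 19 differed from Dppa2 at 6 of 906 aligned bases. Gm14058 on chromosome 2 differed from Dppa4 at 8 of 735, Dppa3-ps on chromosome X from Dppa3 at 8 of 451, and Dppa5c on chromosome 9 from Dppa5a at 9 of 297. Of all 50-base windows along the longest-coding transcript, 29.1% of those of Dppa2, 35.9% of those of Dppa4, 17.7% of those of Dppa3 and 38.6% of those of Dppa5a occurred in a transcript of another gene. For Utf1 the share was 0 of 1178 windows. Read length was not given in the sources used here, and these shares would differ with it. Reads with several alignments have a row of their own in the deposited tables, so the levels of the Dppa genes are uncertain where their sequence is shared, in both groups. The copies themselves held few counts, but reads aligning equally to gene and copy are in neither count. The transcription of the copies therefore cannot be judged from these counts. No pseudogene copy with at least 80% identity reached more than 20 counts over the R2i_BMPi libraries or 19 over the R2i_control libraries. Pigp, a protein-coding gene that shares a 417-base stretch with Dppa5a at 95.9% identity, had 1289 counts in R2i_BMPi and 2449 in R2i_control.

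All 5 genes passed the count filter, and none has exons overlapping those of another gene in the annotation. For each of them every R2i_BMPi library was above every R2i_control library, which was also the case for 34.5% of the 15951 genes tested. The reverse held for 34.1%, so that the groups were apart for 68.6%. Across those genes 64.2% passed an adjusted p of 0.05 in edgeR's quasi-likelihood test, 32.5% of the genes tested as higher and 31.7% as lower in R2i_BMPi cultures. The members were chosen on this contrast, so these shares are given beside their counts and nothing is read from the comparison. The measurements are from bulk RNA, in which more expressing cells and more RNA per cell cannot be told apart.

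Dppa2 and Dppa4, the adjacent pair of SAP-domain genes, differed from each other in size of change. Dppa2 (ENSMUSG00000072419, chromosome 16, 48303908 to 48319723, plus strand, GRCm38) stood at 84.3, 83.2 and 87.9 CPM (gene counts scaled to library size with TMM factors) in R2i_BMPi replicates 1, 2 and 3, against 51.5, 51.8 and 48.3 CPM in the R2i_control replicates. The lowest treated library was 1.61 times the highest control library, and the log2 fold change was 0.75 (SE 0.05). Dppa4 (ENSMUSG00000058550, 48283733 to 48294237 on the same strand) had 153, 154 and 164 CPM in R2i_BMPi and 134, 133 and 138 CPM in R2i_control. Here the gap between the groups was small, 1.11 times between the nearest libraries, with a log2 fold change of 0.22 (SE 0.04). The pair starts 20.2 kb apart. Per kilobase of annotated exon, Dppa4 was the more abundant of the pair in every library, 2.67, 2.72 and 2.75 times Dppa2 in R2i_BMPi and 3.84, 3.79 and 4.22 times in R2i_control. The ratio averaged 2.72 ± 0.041 in R2i_BMPi and 3.95 ± 0.23 in R2i_control (SD, n = 3 each), without overlap between the groups.

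Dppa3 (ENSMUSG00000046323, chromosome 6, 122626410 to 122630272, plus strand), the UHRF1-binding maternal factor, had the largest difference of the 5. It measured 57.8, 40.2 and 57.5 CPM in R2i_BMPi replicates 1, 2 and 3, against 10.5, 11.01 and 9.80 CPM in the R2i_control replicates. Replicate 2 lay below the other treated libraries, and it was still 3.65 times the highest control. The log2 fold change was 2.31 (SE 0.12), and 357 of the 15951 genes (2.24%) had a larger one. Dppa3 was also the member whose treated cultures varied most, with a coefficient of variation of 19.5% in R2i_BMPi and 5.80% in R2i_control. Over 11142 genes at a mean log2 CPM of 2 or more, the medians were 6.13% in R2i_BMPi and 3.18% in R2i_control. The summed level of 15 listed 2-cell-like genes was also lowest in replicate 2 among the treated libraries. It was 54.5, 39.9 and 58.0 CPM in R2i_BMPi replicates 1, 2 and 3 and at most 0.0905 CPM in a control. Among genes of the other lists, Suz12 and Dazl were also lowest in that library among the treated ones, and Sox2 was highest there. These 3 genes were named after their values were seen. A link between the levels of Dppa3 and of the 2-cell-like genes was not tested.

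Dppa5a (ENSMUSG00000060461, chromosome 9, 78367052 to 78368177, minus strand), the KH-domain gene, was the most abundant member in both groups. Levels were 554, 575 and 602 CPM in R2i_BMPi and 330.1, 303 and 343 CPM in R2i_control. The lowest treated library was 1.62 times the highest control, and the log2 fold change was 0.83 (SE 0.05). Spread in the controls, at 6.17%, exceeded that in the treated cultures, at 4.16%.

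Utf1 (ENSMUSG00000047751, chromosome 7, 139943789 to 139945112, plus strand) measured 281, 319 and 283 CPM in R2i_BMPi replicates 1, 2 and 3, against 160.0, 164 and 159.9 CPM in the R2i_control replicates. Replicate 2 was the highest treated library for Utf1 and the lowest for Dppa3. The log2 fold change was 0.87 (SE 0.05), the coefficient of variation 7.42% in R2i_BMPi and 1.61% in R2i_control. Utf1 is the one member for which no other annotated transcript shared a 50-base window, so the caution on copies does not touch it. Its transcript has 63.5% G and C, above 98.9% of 21877 protein-coding genes, whereas those of Dppa2, Dppa3, Dppa4 and Dppa5a have 43.6%, 45.3%, 49.0% and 49.4%.

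**Figure D1:**
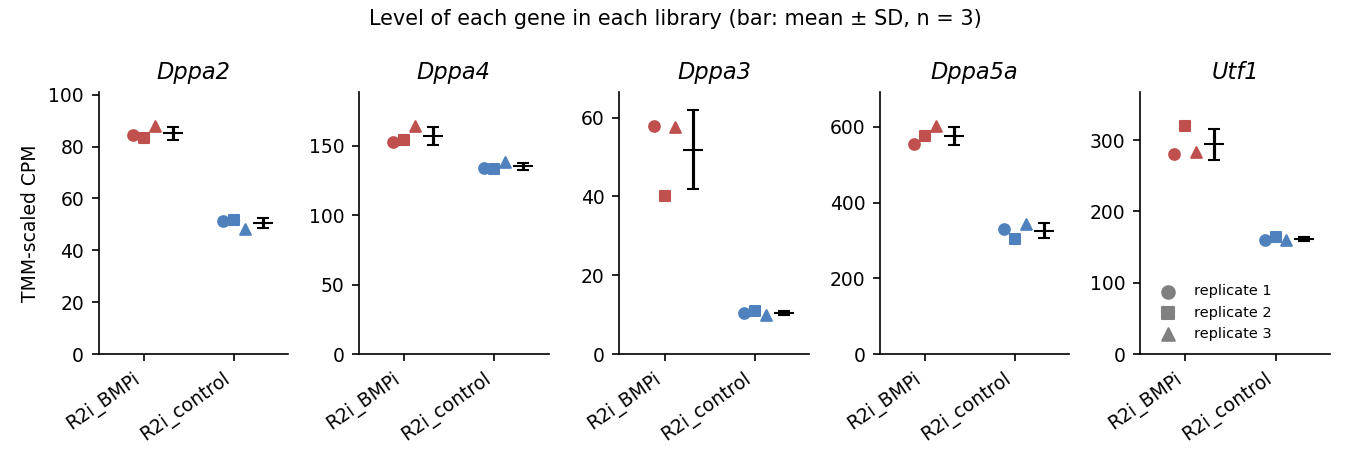
TMM-scaled CPM (vertical axes, each from 0) of the 5 genes in the 3 R2i_BMPi libraries (red, left) and the 3 R2i_control libraries (blue, right), with marker shapes for replicates and black bars for mean ± SD. The groups do not overlap for any of the 5; as a ratio of the lowest treated to the highest control library, the gap is widest for Dppa3, at 3.65, and narrowest for Dppa4, at 1.11.

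The order of the levels, compared per kilobase of exon, changed at one place between the groups. In R2i_BMPi it was Dppa5a at 932 ± 38.8, Utf1 at 240 ± 17.8, Dppa4 at 94.5 ± 3.76, Dppa3 at 58.1 ± 11.3 and Dppa2 at 34.8 ± 1.00 CPM per kb (SD, n = 3). In R2i_control the order was Dppa5a at 526 ± 32.4, Utf1 at 132 ± 2.12, Dppa4 at 81.4 ± 1.57, Dppa2 at 20.6 ± 0.795 and Dppa3 at 11.7 ± 0.678 CPM per kb. Per kilobase, Dppa3 thus stood above Dppa2 in all 3 treated libraries and below it in all 3 controls, and no neighbours in either order overlapped. This switch rests on dividing by exon lengths of 892 bases for Dppa3 and 2447 for Dppa2, not corrected for shared sequence. In CPM without that division, Dppa3 was below Dppa2 in every library. Among 15937 genes with an annotated length, Dppa5a ranked 18 in R2i_BMPi and 31 in R2i_control, and Utf1 135 and 291. The ranks of Dppa3 were 928 in R2i_BMPi and 4843 in R2i_control, those of Dppa2 1759 and 2967, and those of Dppa4 489 and 564. The 5 genes together took 1165 ± 32.8 CPM in R2i_BMPi and 683 ± 17.7 CPM in R2i_control.

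Dppa2, Dppa5a and Utf1 were closer to each other in profile over the 6 libraries than to Dppa3 or Dppa4, which stood apart on either side. Within the treated libraries they did not match, as Utf1 was highest in replicate 2 and Dppa2 lowest there. With each profile centred on its own mean in log2 CPM, the root-mean-square difference was 0.09 between Dppa2 and Dppa5a, 0.10 between Dppa2 and Utf1 and 0.10 between Dppa5a and Utf1. Dppa4 differed from these 3 by 0.27 to 0.33, and Dppa3 from them by 0.75 to 0.78. Such differences are dominated by the size of the change between the groups, and many genes are as close. Of 10799 candidate protein-coding genes at or above a mean log2 CPM of 2, the nearest to Dppa2 were Rusc2, Prx and Tmem183a, at 0.02 to 0.03. Nearest to Dppa3 were Lef1, a WNT-responsive transcription factor gene, at 0.05, Steap3, a metalloreductase gene, at 0.10, and Rhox5, a homeobox gene on the X chromosome, at 0.11. Dppa4 was nearest to Bysl, of ribosome assembly, Adrm1, a proteasome ubiquitin receptor gene, and Gdi2, a regulator of RAB proteins, at 0.01 to 0.02. Nearest to Dppa5a were Upf3a, of nonsense-mediated decay, Tmsb4x, an actin-binding peptide gene, and Ahcy, which clears S-adenosylhomocysteine, at 0.02 to 0.03. Utf1 was nearest to Rab6b, a RAB GTPase gene, Epha2, an ephrin receptor gene, and Ripk3, a necroptosis kinase gene, at 0.03. Lef1, Rusc2, Prx, Bysl and Gdi2 have exons that overlap antisense genes, so their counts are uncertain.

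**Figure D2:**
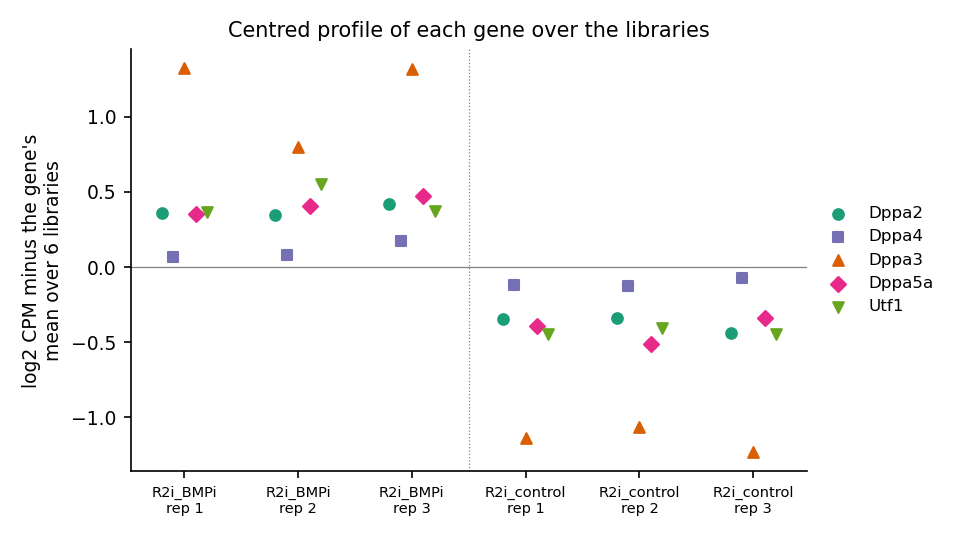
Log2 CPM of each gene minus its own mean over the 6 libraries (vertical axis), for R2i_BMPi replicates on the left and R2i_control replicates on the right; each marker is 1 gene in 1 library. Dppa3 spans the widest range, Dppa4 the narrowest, and in R2i_BMPi replicate 2 Dppa3 is lowest while Utf1 is highest among the treated libraries.

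The relatives of these genes by name were near the floor of detection. Dppa1 had 14, 2 and 1 counts in R2i_BMPi replicates 1, 2 and 3 and 1, 0 and 1 in the R2i_control replicates, below the filter. Dppa5b and Dppa5c, unprocessed pseudogenes on chromosome 9, had at most 5 counts in a treated library and 7 in a control. Dppa3-ps held 14 counts over the treated libraries and 5 over the controls. Reads that these pseudogenes share with Dppa5a or Dppa3 are not in these counts.

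Genes tied to the members by function, with the 2-cell-like genes left out, moved in both directions, at about the rate of all genes when pooled. Single lists differed, with medians from -0.59 for primordial germ cell genes to 0.37 for KH-domain and maternal-effect genes. The 2-cell-like genes are given separately below, because they could pass the filter only through the treated libraries. Across 8 lists with 77 different genes tested, 26 rose (33.8%) and 27 fell (35.1%), beside 32.5% and 31.7% of all genes tested, with a median log2 fold change of 0.01 against -0.003 for all genes tested. All adjusted p-values below are from edgeR's quasi-likelihood test with Benjamini-Hochberg adjustment over the 15951 genes.

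Other transcripts known for their enrichment in embryonic stem cells did not follow the 5 genes as a group. Of 14 tested, 6 rose, 3 fell and 5 did not pass, with a median of 0.05. Dnmt3l, a cofactor of the DNA methyltransferases, rose to 660 ± 25.5 CPM in R2i_BMPi, against 498 ± 9.26 CPM in R2i_control (log2 fold change 0.41, adjusted p = 3.72e-07). L1td1, an RNA-binding gene, rose by 0.37 (adjusted p = 1.55e-06), and Tdgf1, the NODAL co-receptor gene, fell by 0.26 (adjusted p = 4.65e-05). Khdc3, Pramel6 and Pramel7, chosen after their values were seen, rose by 1.53, 2.91 and 3.24 on the log2 scale, Pramel7 to 4.49 ± 1.02 CPM in R2i_BMPi against 0.472 ± 0.0458 CPM in R2i_control. Dnmt3l overlaps an antisense gene.

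In the OCT4 and SOX2 circuit, which is known to drive Utf1, more genes fell than rose in the cultures where Utf1 was higher. Of 12 genes, 8 fell, 1 rose and 3 did not pass, with a median of -0.16. The fallers were 6 without R2i_BMPi replicate 3 or any one of the R2i_control replicates, where the calls of Klf2 and Tfcp2l1 were lost. Esrrb, an orphan nuclear receptor gene, fell to 824 ± 36.1 CPM in R2i_BMPi, against 1026 ± 10.3 CPM in R2i_control (adjusted p = 4.90e-06), and Nanog fell to 640 ± 12.01 CPM in R2i_BMPi, against 887 ± 10.9 CPM in R2i_control (adjusted p = 2.54e-08). Pou5f1, which encodes OCT4 and overlaps an antisense gene, measured 887 ± 65.3 CPM in R2i_BMPi and 825 ± 32.8 CPM in R2i_control (log2 fold change 0.10, adjusted p = 0.0809). It passed as higher without R2i_BMPi replicate 1 (adjusted p = 0.00593). The list's single riser, Nr5a2, missed the threshold without any one of R2i_control replicates 1, 2 and 3 or R2i_BMPi replicates 1 and 3 (adjusted p = 0.0511 to 0.081).

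DNA methylation enzymes and partners of DPPA3 moved in both directions, beside a 4.97-fold difference of Dppa3 itself. Of 13 genes 5 rose, 3 fell and 5 did not pass, with a median of 0.04. Uhrf1, whose product recruits the maintenance methyltransferase and is bound by DPPA3, measured 783 ± 18.4 CPM in R2i_BMPi and 824 ± 8.89 CPM in R2i_control (log2 fold change -0.07, adjusted p = 0.102), and passed as lower with scaling by library totals only (adjusted p = 0.00494). Zfp57, which keeps methylation at imprinted loci, fell by 0.41 (adjusted p = 1.18e-07). Its corepressor gene Trim28 had a log2 fold change of -0.12 (adjusted p = 0.0204) and did not pass without R2i_BMPi replicate 2 or R2i_control replicate 1 or 3 (adjusted p = 0.0544, 0.0655 and 0.0685). The count of risers was 3 without R2i_control replicate 1, 2 or 3 and with upper-quartile factors. With library totals only, 3 rose and 5 fell.

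Subunits of the histone-modifying complexes found with DPPA2 and DPPA4 at bivalent promoters rose more often than they fell. Of 15 genes 9 rose, 4 fell and 2 did not pass, with a median of 0.17. Jarid2, an accessory subunit of the repressive complex PRC2, rose to 608 ± 45.1 CPM in R2i_BMPi, against 386 ± 6.35 CPM in R2i_control (log2 fold change 0.66, adjusted p = 1.45e-08). Wdr5, a core subunit of the activating methyltransferase complexes, fell by 0.22 (adjusted p = 0.000109). Rbbp4, a histone-binding subunit whose exons overlap antisense genes, measured 625 ± 9.96 CPM in R2i_BMPi and 609 ± 21.9 CPM in R2i_control (adjusted p = 0.422).

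Of 3 genes known from knockout studies to need Dppa2 or Dppa4, Syce1, a meiotic synaptonemal complex gene, fell to 14.2 ± 1.94 CPM in R2i_BMPi, against 32.6 ± 1.25 CPM in R2i_control (log2 fold change -1.20, adjusted p = 1.26e-08). Mael, of the piRNA pathway, measured 12.5 ± 0.542 CPM in R2i_BMPi and 12.3 ± 1.59 CPM in R2i_control (adjusted p = 0.827). Nkx2-5, a cardiac homeobox gene, rose to 0.788 ± 0.214 CPM in R2i_BMPi, against 0.286 ± 0.219 CPM in R2i_control (log2 fold change 1.44, adjusted p = 0.0171), at levels near the count filter. The call for Nkx2-5 was lost without R2i_BMPi replicate 3 (adjusted p = 0.0542) and without R2i_control replicate 1 (adjusted p = 0.0799), and the gene was not tested under a stricter filter.

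The 2-cell-like genes, which DPPA2 and DPPA4 are known to activate through Dux, were nearly silent in controls. Of 15 listed, 14 passed the filter and all 14 were higher, but 9 of them had no control count and the others 1 or 2 over the group, so that all 14 could pass only through the treated libraries and no share is read from this count. Zscan4c had 703 counts in R2i_BMPi and 0 in R2i_control, at least 256-fold higher with a floor of 3 counts over the control group. Zscan4a is annotated as an unprocessed pseudogene. It had 719 counts in R2i_BMPi and 2 in R2i_control, a 392-fold ratio (95% exact interval 108 to 3245, counting error only). Duxf3, the Dux family gene on the list, named after its counts were seen, had 71 counts in R2i_BMPi and 0 in R2i_control. With the same floor it was at least 25.8-fold higher. Most of these genes have near-identical copies, which makes their counts uncertain.

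Among KH-domain and maternal-effect genes, 6 of 11 passed the filter, of which 2 rose, 1 fell and 3 did not pass, with a median of 0.37. Ooep, a KH-domain gene of the subcortical maternal complex next to Dppa5a, measured 41.3 ± 1.59 CPM in R2i_BMPi and 42.0 ± 2.98 CPM in R2i_control (adjusted p = 0.762). Tle6 rose by 0.38 (adjusted p = 0.000329) and Zbed3 fell to 19.7 ± 2.32 CPM, against 50.4 ± 1.00 CPM in R2i_control (adjusted p = 5.58e-10). Primordial germ cell genes, a list relevant because Dppa3 marks those cells, fell more often than they rose, with 6 lower, 1 higher and 2 not passing of 9 and a median of -0.59. Kit, a growth factor receptor gene, fell by 0.59 (adjusted p = 1.72e-08) and Tdrd12, of the piRNA pathway, by 0.96 (adjusted p = 2.60e-07). Tfap2c, a transcription factor gene of germ cells and trophectoderm, had 137 ± 9.06 CPM in R2i_BMPi and 128 ± 1.20 CPM in R2i_control (adjusted p = 0.0951), and passed as higher without R2i_BMPi replicate 2 (adjusted p = 0.00261), which made the list's risers 2.

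UTF1 is known to recruit the mRNA decapping machinery and to act in a loop with MYC and ARF. Of 8 such genes 3 rose, 2 fell and 3 did not pass, with a median of 0.11. Edc4, a decapping scaffold gene that overlaps another gene on the same strand, rose by 0.31 (adjusted p = 2.35e-05), and Mycn fell by 0.19 (adjusted p = 0.00072). Dcp2, the decapping enzyme gene, measured 198 ± 21.0 CPM in R2i_BMPi and 182 ± 3.44 CPM in R2i_control (adjusted p = 0.0831), and passed as higher without R2i_BMPi replicate 2 (adjusted p = 0.00728), where the list had 5 risers, Dcp1a included. Myc, chosen after its value was seen, rose to 16.2 ± 1.83 CPM in R2i_BMPi against 2.58 ± 0.376 CPM in R2i_control.

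**Figure D3:**
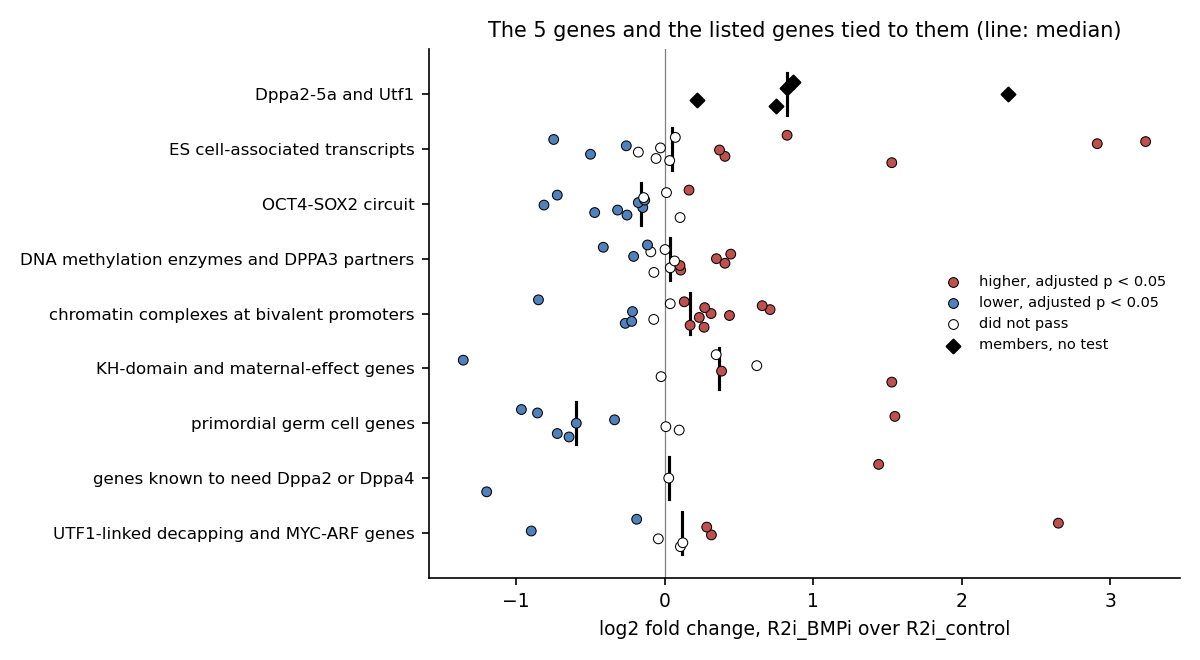
Log2 fold change of R2i_BMPi over R2i_control (horizontal axis) for the 5 genes (black diamonds, no test) and for the tested genes of 8 lists (circles; red rose, blue fell, white did not pass an adjusted p of 0.05), with black lines at medians. List medians run from -0.59 for primordial germ cell genes to 0.37 for KH-domain and maternal-effect genes; the 2-cell-like list is left out because most of its folds are bounds.

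Position on the chromosome was not used to choose the members, and their neighbours were called in both directions. Within 250 kb of a member's start lay 37 other tested genes, of which 10 rose (27.0%), 13 fell (35.1%) and 14 did not pass, beside 32.5% and 31.7% of all genes tested. Dppa3 sits in a cluster of stem cell genes. Its nearest tested protein-coding neighbours, Gdf3, a TGF-beta family ligand gene 16.3 kb away, and Nanog, 81.1 kb away, both fell, by 0.50 and 0.47 on the log2 scale (adjusted p = 5.94e-08 and 2.54e-08). Of the 14 tested genes around Dppa3, 4 rose and 3 fell, and the closest riser was Apobec1 at 23.97 kb, named after its value was seen (log2 fold change 0.60, adjusted p = 8.63e-06). Around Dppa5a, 3 of 11 rose and 3 fell, while Ooep at 10.5 kb and Gsta4 at 185 kb did not pass (adjusted p = 0.762 and 0.876). Around Utf1, 6 of 10 tested genes fell and 3 rose, and the nearest protein-coding genes on either side were Kndc1, which fell by 0.72 (adjusted p = 1.66e-05), and 6430531B16Rik, which did not pass (adjusted p = 0.926). The closest tested gene of any type was Gm16201, a non-coding transcript 6.61 kb from Utf1, named after its value was seen, which rose by 2.51 (adjusted p = 5.95e-07). Gm16201 and 6430531B16Rik overlap on opposite strands, so the counts of both are uncertain. Beyond the pair itself, the nearest protein-coding gene to Dppa2 was Morc1, a germline gene with a log2 fold change of -0.14 (adjusted p = 0.0439). The Morc1 call was lost without R2i_BMPi replicate 1 or 3 or any one of the R2i_control replicates (adjusted p = 0.0665 to 0.244), and likewise with DESeq2, a stricter filter or median-of-ratios factors (adjusted p = 0.0581, 0.0528 and 0.05003). Nectin3, the nearest protein-coding gene on the other side of Dppa4 at 1785 kb, rose by 0.40 (adjusted p = 0.000115). The processed pseudogene Gm7204 lay closer on that side, 65.1 kb from Dppa4, and did not pass (adjusted p = 0.685).

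**Figure D4:**
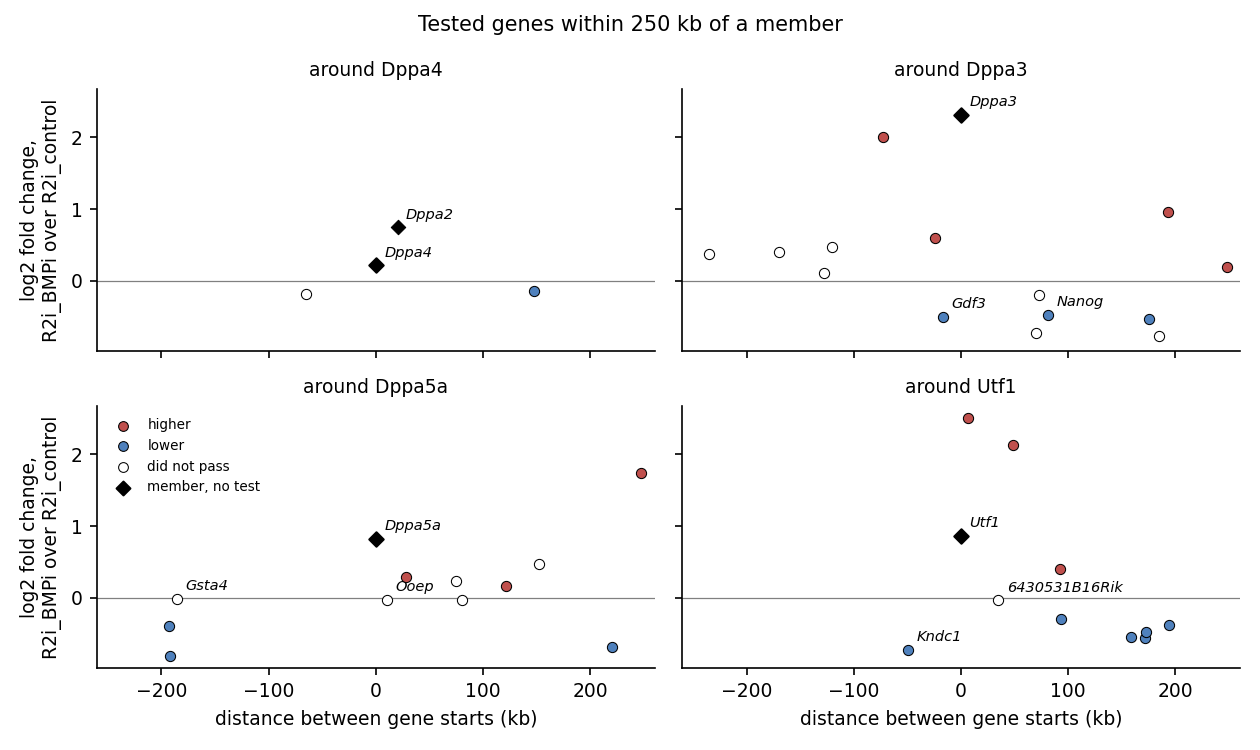
Log2 fold change of R2i_BMPi over R2i_control (vertical axis) against the distance between gene starts in kb (horizontal axis) for tested genes within 250 kb of Dppa4 (Dppa2 included), Dppa3, Dppa5a and Utf1. Black diamonds are members, and circles are other genes (red rose, blue fell, white did not pass an adjusted p of 0.05); the nearest protein-coding genes are named, and Gdf3 and Nanog lie below 0 on either side of Dppa3.

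Of the 5 genes, Utf1 had an entry in the RefSeq promoter table (GRCm38.p6). The window chr7:139943606-139943788 on the plus strand, which is the part before the annotated start of the gene, is shown because Utf1 is the member with no shared window and its known regulators are in the lists; capitals mark matches to the GC box GGGCGG on either strand.
Utf1 upstream: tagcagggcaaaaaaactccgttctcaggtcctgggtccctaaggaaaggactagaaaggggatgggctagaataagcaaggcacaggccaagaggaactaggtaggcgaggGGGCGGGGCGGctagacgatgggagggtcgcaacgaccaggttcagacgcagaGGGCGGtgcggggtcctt
The window has 3 matches to GGGCGG, of which 2 overlap by 1 base, and 21.5% of 32851 promoter windows of the same length have at least 1. It has no match on either strand to the octamer ATGCAAAT, present in 1.17% of windows, to ACAAAG, the core of SOX sites, present in 12.5%, or to GGCGCC, a GC-rich element bound by BMP SMADs, present in 6.33%. Only this window and these exact letters were searched, so sites elsewhere around Utf1, or variants of these letters, could not be seen. The G and C content of the window was 59.6%, against a median of 51.4% over all windows.

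Libraries held 31474666 to 35322844 gene counts. The 5 embryonic stem cell markers Pou5f1, Sox2, Nanog, Zfp42 and Esrrb were abundant in every library. Their summed levels were 2757 to 2915 CPM in R2i_BMPi and 3256 to 3375 CPM in R2i_control. Of these 5 markers, 0 rose and 3 fell, namely Sox2, Nanog and Esrrb. Of 8 trophectoderm markers 6 were tested, 4 rose and 0 fell, with summed levels of 297 to 374 CPM in R2i_BMPi and 168 to 171 CPM in R2i_control. Tfap2c, which did not pass, held 137 ± 9.06 CPM of these sums in R2i_BMPi and 128 ± 1.20 CPM in R2i_control. Krt8, Krt18, Gata3 and Hand1, named after their counts were seen, had more counts in every R2i_BMPi library than in any control. Krt8 had 2740, 2338 and 3492 in R2i_BMPi and 646, 627 and 605 in R2i_control. Krt18 had 2354, 2111 and 2988 against 438, 437 and 372. For Gata3 they were 508, 397 and 552 against 87, 83 and 69, and for Hand1 173, 161 and 245 against 4, 4 and 2. Cdx2, which defines the trophectoderm, was named after its counts were seen. It had 21, 8 and 14 counts in R2i_BMPi and 0, 1 and 1 in R2i_control, near the floor. Eomes had 277, 284 and 313 counts in R2i_BMPi and 287, 332 and 308 in R2i_control. Elf5 had 2, 6 and 6 in R2i_BMPi and 4, 5 and 2 in R2i_control. Of 6 primitive endoderm markers 2 rose and 2 fell, at 19.9 to 23.3 CPM in R2i_BMPi and 30.5 to 32.5 CPM in R2i_control. Of 8 feeder fibroblast markers 4 were tested and 2 rose, at 9.59 to 9.70 CPM in R2i_BMPi and 5.76 to 7.15 CPM in R2i_control. Col3a1 and Lum had 0 counts in the controls, but Lum had only 1, 0 and 0 in R2i_BMPi. Col1a1 had 104, 105 and 120 counts in R2i_BMPi and 36, 57 and 40 in R2i_control. Thy1 had 150, 130 and 155 in R2i_BMPi and 151, 186 and 186 in R2i_control. The part of these cell types in the levels of the 5 genes was not tested. Noggin and dorsomorphin were added together, so their effects cannot be told apart.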

How the data were processed

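Poly(A) RNA was sequenced from 6 cultures, 3 per group. For every library the authors deposited a table of unnormalised gene counts. Tools named in the submitters' processing notes, without roles, are HTSeq 0.9.1, STAR 2.6.1, cutadapt 1.4.2 and CASAVA 1.8.2, as well as DESeq2, with the build GRCm38.p6. Annotation release, read length and strand setting: not given in the sources used here. Besides 53465 genes, tables have 5 rows naming no gene, with 25.6% to 26.4% of reads, which were left out. Symbols, exons and coordinates came from GENCODE M21, which matched 53360 identifiers.

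Genes passing edgeR's default filter (minimum count 10, total 15) were compared with edgeR 4.0.16 (glmQLFit and glmQLFTest, two-sided, TMM factors). P-values were adjusted by Benjamini and Hochberg's method, and 0.05 was the threshold. CPM and log2 CPM (prior count 2) were computed from the counts. The procedure was also run on simulated counts with far fewer changed genes than were called here, which does not measure its error rate in these data. Copies were sought with BLAST 2.17.0 at 80% identity or more over at least 100 bases, and scripts ran in Python 3.11.15 and R 4.3.3.

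The members and the lists were chosen with earlier results of these data known. Named genes are the members, the 3 most abundant tested genes of each list, the nearest tested protein-coding gene on each side of a member, and the 3 genes nearest to each member in centred profile; others are marked where they appear. Alternatives were other scalings and filters, DESeq2 1.42.0, limma-voom (limma 3.58.1), a replicate block and leaving out each library.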

Additional observations from a re-analysis of the deposited data

How the results depend on the processing

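All 5 members kept a positive log2 fold change under the 14 alternatives. Leaving out one library in turn gave 0.71 to 0.77 for Dppa2, 2.23 to 2.47 for Dppa3, 0.18 to 0.24 for Dppa4, 0.77 to 0.86 for Dppa5a and 0.80 to 0.90 for Utf1. With library totals only, Dppa2 was at 0.69 and Dppa4 at 0.16, both moved by more than the spread between replicates; the median of all genes tested was then -0.06. Under the other settings each member moved by less than its own spread between replicates. Genes called numbered 4537 to 5606 as higher and 4597 to 5692 as lower. Listed genes called, here with the 14 2-cell-like genes included, were 40 higher and 27 lower, with a range of 34 to 44 higher and 24 to 32 lower, and neighbours ranged from 8 to 12 higher and from 11 to 14 lower.

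The replicate numbers did not pair the libraries. Deviations from the group means correlated at -0.04, 0.01 and 0.03 between same-numbered libraries, and R2i_BMPi replicate 1 correlated best with R2i_control replicate 2. The fit with a replicate block called 5149 genes higher and 5061 lower. With the block, Pou5f1 and Dcp2 passed as higher and Tbx3 and Sox15 as lower, while Dnmt3b did not pass.

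Depth was at least 31474666 gene counts a library, and the lowest count of a member was 325, for Dppa3 in R2i_control replicate 3. With 3 libraries a group, the spread of each member is itself known from 3 values.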
